A study of Rattus norvegicus with 12 samples.

Results

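The level of each transcript after double knockdown of Btg1 and Btg2 was set against the level to which the single knockdowns add up, in primary cultures of ventricular cardiomyocytes from newborn wild-type Sprague-Dawley rats. The departure from additivity of a gene was the contrast siBtg12 minus siBtg1 minus siBtg2 plus siScr on the log2 scale. All 12 of the 12 RNA-seq libraries entered it, 3 in each of 4 groups, and every one was made 48 h after transfection of small interfering RNA (siRNA). The siBtg12 cultures received 10 nM of the Btg1 siRNA and 10 nM of the Btg2 siRNA and no scramble. The siBtg1 cultures received 10 nM of the Btg1 siRNA and 10 nM of a scrambled siRNA, and the siBtg2 cultures received the Btg2 siRNA in its place at the same doses. The siScr controls received 20 nM of the scrambled siRNA, so every culture carried 20 nM of siRNA in all, and the dose of each siRNA sums to 0 nM in the contrast. Whether the 3 libraries of a group stem from separate cultures or animals is not in the labels, so the p-values describe the spread among libraries, which could be technical. No batch is named.

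BTG1 and BTG2 belong to the BTG/TOB family of small antiproliferative proteins, which bind the CCR4-NOT deadenylase and can promote shortening of messenger RNA tails. BTG2 is itself an early-response and p53 target gene. Additivity on the log2 scale means that each siRNA multiplies a transcript by the same factor whether or not the other siRNA is present. A negative departure means that the double knockdown held less of a transcript than this rule gives, and a positive departure means that it held more.

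Library totals ran from 24434925 to 46206581 counts, so that 1 count was worth 0.02126 to 0.04215 CPM (counts scaled to library size). CPM here are also scaled by trimmed means of M values (TMM). The cultures carried cardiomyocyte transcripts in every library, with cardiac troponin T (Tnnt2) at 6650 to 8530 TPM, a length-scaled level, and the atrial and fast ventricular myosin heavy chain Myh6 at 2610 to 3410 TPM. Markers of fibroblasts, smooth muscle, endothelium and macrophages were present as well. In such bulk samples fewer cells of a type and less RNA per cell cannot be told apart.

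Of 12535 genes tested, 1890 departed from additivity (15.1%) by edgeR's quasi-likelihood test with a Benjamini-Hochberg adjusted p under 0.05. The double knockdown was below the additive level in 1264 of them (10.1% of genes tested) and above it in 626 (4.99%). Among called genes the median size of the departure was 0.36 on the log2 scale. Departures of at least 2-fold were called for 79 genes below and 22 genes above the additive level. Over all genes tested, called or not, the median departure was 0.01. The count above the additive level was 369 without siScr replicate 1 and 367 without siBtg1 replicate 3. With scaling by library size alone, which moved the median departure to 0.05, the calls split into 1016 below and 1004 above. A total of 1077 genes were called in all 12 fits that each left out 1 library, 829 of them below and 248 above the additive level.

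How many genes were called followed their level. Below 1 CPM 1.77% were called, between 1 and 5 CPM 7.63%, between 5 and 20 CPM 13.7%, between 20 and 100 CPM 18.1% and above 100 CPM 21.8%. The median standard error (SE) of the departure was 0.60 below 1 CPM and 0.06 above 100 CPM. Small departures were therefore not detectable in weakly expressed genes.

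Both targeted transcripts lay below their additive level. Btg1 was at 50.9, 54.4 and 49.8 CPM in siBtg12, at 69.9, 61.8 and 66.8 in siBtg1, at 296, 305 and 297 in siBtg2 and at 285, 281 and 284 in siScr. The additive level was 70.0 CPM, above all 3 siBtg12 libraries, and the departure was -0.44 ± 0.06 (log2, SE, edgeR adjusted p = 2.9e-05). Btg2 was at 69.6, 67.6 and 68.8 CPM in siBtg12, at 170, 179 and 177 in siBtg1, at 82.8, 85.3 and 87.4 in siBtg2 and at 140, 132 and 144 in siScr. Its additive level was 108 CPM and its departure -0.65 ± 0.06 (edgeR adjusted p = 1.4e-07). The Btg2 siRNA changed its own target by -1.35 on the Btg1 knockdown and by -0.70 on scramble. The Btg1 siRNA changed Btg1 by -2.53 on the Btg2 knockdown and by -2.10 on scramble. The depth of each knockdown thus differed between the double and the single knockdowns, and its part in the other departures was not tested. Of the 5 BTG/TOB genes tested, edgeR called no others, with Btg3 at -0.24 (edgeR adjusted p = 0.053), Tob1 at -0.04 and Tob2 at -0.02. DESeq2 called 3 of the 5, as did edgeR with no filter, with a filter of 1 CPM in 6 libraries, with a correction for locus length, and without siBtg1 replicate 2 or siBtg12 replicate 2.

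**Figure D1:**
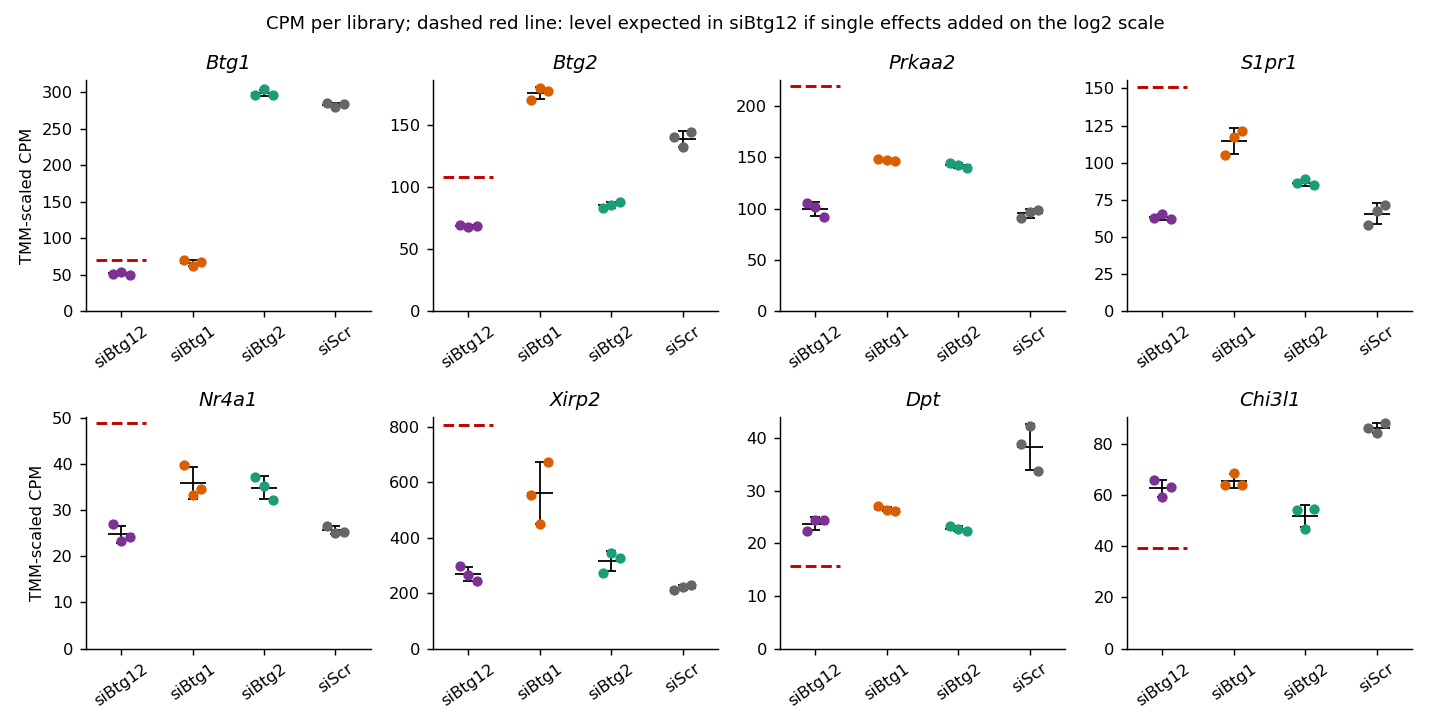
CPM of 8 genes in each of the 12 libraries (points), with the mean and SD of the 3 libraries of a group, for siBtg12, siBtg1, siBtg2 and siScr. The dashed red line is the level expected in siBtg12 if the single effects added on the log2 scale: the siBtg12 points lie below it for Btg1, Btg2, Prkaa2, S1pr1, Nr4a1 and Xirp2, and above it for Dpt and Chi3l1.

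The genes furthest below the additive level fell into a few forms, sorted here by eye after their values were seen. In the first, each siRNA alone raised the gene and the double knockdown stood near scramble. Prkaa2, a catalytic subunit of AMP-activated protein kinase, was at 105, 101 and 91.7 CPM in siBtg12, at 148, 147 and 146 in siBtg1, at 144, 142 and 140 in siBtg2 and at 90.5, 96.9 and 98.9 in siScr. The siBtg12 and siScr libraries overlapped and lay below every single-knockdown library. Its departure of -1.14 ± 0.07 placed the double knockdown at 45.4% of the additive level (edgeR adjusted p = 1.9e-10). S1pr1, a receptor for the lipid mediator sphingosine 1-phosphate, was at 63.1, 65.4 and 61.8 CPM in siBtg12, at 105, 117 and 121 in siBtg1, at 86.1, 88.8 and 84.7 in siBtg2 and at 58.0, 67.3 and 71.5 in siScr. All 6 single-knockdown libraries were above all siBtg12 and siScr libraries, and the departure was -1.25 ± 0.09 (edgeR adjusted p = 1.2e-08). Cacna2d1, an auxiliary subunit of voltage-gated calcium channels, averaged 67.5 ± 3.67 CPM in siBtg12, 92.2 ± 2.54 in siBtg1, 93.0 ± 0.775 in siBtg2 and 65.2 ± 3.04 in siScr (SD, n = 3 each), a departure of -0.96. The same form was seen in Ankrd23, a titin-binding ankyrin repeat protein (-1.62), in Ino80d, a chromatin remodelling subunit (-1.50), in Lpp, a focal adhesion LIM protein (-1.46), and in Ppargc1b, a coactivator of mitochondrial genes (-0.90).

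In the second form the Btg1 siRNA alone gave most of the rise, and the rise was smaller or absent when the Btg2 siRNA was also present. Creb5, a transcription factor of the CREB/ATF family, was at 8.76, 9.54 and 8.91 CPM in siBtg12, at 21.0, 18.4 and 26.1 in siBtg1, at 8.94, 11.3 and 9.59 in siBtg2 and at 6.56, 8.36 and 7.29 in siScr. The siBtg1 libraries stood apart from the other 9, and the departure of -1.68 ± 0.17 was the largest negative one named by the rule (edgeR adjusted p = 8.5e-07). Xirp2, an actin-binding Xin repeat protein of the intercalated disc and Z-disc, was at 296, 266 and 245 CPM in siBtg12, at 556, 451 and 675 in siBtg1, at 274, 347 and 328 in siBtg2 and at 210, 222 and 228 in siScr. Its additive level of 806 CPM was above every library, and the departure was -1.58 ± 0.21 (edgeR adjusted p = 0.0014). F2rl1, a protease-activated receptor, departed by -1.35, Pxdc1 by -1.15 and Fhl1, a LIM protein of the sarcomere, by -1.0.

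In the third form the double knockdown stayed above scramble but below the sum of the single effects. Cnn1, the actin-binding protein calponin, was at 138, 154 and 144 CPM in siBtg12, at 164, 161 and 195 in siBtg1, at 124, 129 and 118 in siBtg2 and at 57.6, 65.9 and 67.3 in siScr. All 9 knockdown libraries exceeded scramble, while the additive level was 337 CPM (departure -1.21 ± 0.10, edgeR adjusted p = 1.0e-06). Lmcd1, a LIM-domain cofactor, stood at 146 ± 17.9 CPM in siBtg12, 172 ± 26.1 in siBtg1, 108 ± 11.5 in siBtg2 and 58.5 ± 1.42 in siScr (SD, n = 3 each) and departed by -1.11. Hipk2, a nuclear kinase, and Itga6, a laminin-binding integrin subunit, departed by -1.05 and -0.96. Mib1, a ubiquitin ligase that acts on Notch ligands, and Lrrc58 departed by -1.26 and -1.20.

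In the fourth form the Btg2 siRNA raised the gene on scramble but not on the Btg1 knockdown, and the double knockdown fell below scramble. Prrg4, a transmembrane Gla-domain protein, was at 15.5, 12.9 and 11.5 CPM in siBtg12, at 20.5, 19.4 and 20.5 in siBtg1, at 47.8, 50.2 and 45.4 in siBtg2 and at 27.9, 28.5 and 30.7 in siScr. No group overlapped another, and the departure was -1.32 ± 0.11 (edgeR adjusted p = 3.7e-08). Zbtb20, a zinc finger repressor, departed by -1.25 and Crim1, a transmembrane regulator of bone morphogenetic proteins, by -0.93.

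Genes above the additive level departed by less and were fewer. Chi3l1, a secreted chitinase-like protein, was at 65.8, 59.2 and 63.1 CPM in siBtg12, at 63.9, 68.4 and 63.9 in siBtg1, at 54.2, 46.7 and 54.6 in siBtg2 and at 86.3, 84.4 and 88.0 in siScr. All 9 knockdown libraries lay below scramble, but the double knockdown lay above its additive level of 39.3 CPM (departure 0.67 ± 0.08, edgeR adjusted p = 2.7e-06). Dpt, the matrix protein dermatopontin, was at 22.3, 24.4 and 24.5 CPM in siBtg12, at 27.1, 26.4 and 26.2 in siBtg1, at 23.3, 22.8 and 22.3 in siBtg2 and at 38.9, 42.4 and 33.8 in siScr. The siBtg12 libraries overlapped those of siBtg2, and the departure was 0.59 ± 0.10 (edgeR adjusted p = 2.1e-04). Pla2g7, a phospholipase that hydrolyses platelet-activating factor, and the death receptor Fas departed by 0.70 and 0.42, with their double-knockdown means also below scramble.

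Other genes above the additive level took other forms. Dhrs7c, a dehydrogenase of the sarcoplasmic reticulum, was at 5.0, 5.25 and 5.73 CPM in siBtg12, at 5.31, 5.15 and 4.70 in siBtg1, at 2.59, 3.5 and 3.45 in siBtg2 and at 5.21, 8.06 and 7.02 in siScr. Only siBtg2 lay apart from every other group, and the departure of 1.18 ± 0.21 was the largest positive one among the 15 named by size (edgeR adjusted p = 4.3e-04). Tmod4, a tropomodulin that caps actin filaments, averaged 8.23 ± 0.324 CPM in siBtg12, 6.00 ± 0.437 in siBtg1, 5.28 ± 0.606 in siBtg2 and 6.36 ± 0.763 in siScr (SD, n = 3 each) and departed by 0.74. Its double-knockdown mean was thus the highest of the 4, as was that of the hydrolase Cmbl, which departed by 0.76. Gstm7, a glutathione transferase, departed by 0.78. Hjv, a coreceptor for bone morphogenetic proteins, departed by 0.59. Ccdc62, Ccdc28a and Ccdc28b lay between 0.60 and 0.65.

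The departure is also the difference between the effects of 1 siRNA on its 2 backgrounds, and these comparisons share no library. The Btg2 siRNA changed 2791 genes on the Btg1 knockdown (22.3%) and 3760 on scramble (30.0%), by edgeR's adjusted p. They shared 1387 genes, 49.7% of the list on the Btg1 knockdown and 36.9% of the list on scramble. Of these, 1101 moved the same way and 286 opposite ways. All 286 were called for departure, which opposite calls make all but certain because the departure is the difference of the 2 effects. In 250 of the 286 the Btg2 siRNA lowered the gene on the Btg1 knockdown and raised it on scramble, and in 36 the reverse held. The Btg1 siRNA changed 4039 genes on the Btg2 knockdown (32.2%) and 4571 on scramble (36.5%). They shared 2362, which were 58.5% and 51.7% of the lists, with 2097 moving the same way and 265 opposite ways. Of those 265, 229 were lowered on the Btg2 knockdown and raised on scramble.

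Across the 9781 genes of at least 5 CPM, Pearson's r between the log2 effects on the knockdown and on scramble was 0.341 for the Btg2 siRNA and 0.565 for the Btg1 siRNA. Over all 12535 genes these values were 0.213 and 0.448. These are correlations across genes, which are not independent replicates, and the same 12 libraries give the values of both siRNAs. Prkaa2, Mib1, Cacna2d1, S1pr1, Hipk2, Tead1 and Cnksr3 were named for both siRNAs. Both lists are ranked by the same departure p, which makes such an overlap likely by construction. Prkaa2 changed by -0.57 with the Btg2 siRNA on the Btg1 knockdown and by 0.57 on scramble. Mib1 changed by -0.66 with the Btg1 siRNA on the Btg2 knockdown and by 0.60 on scramble. Cpeb4, which binds cytoplasmic polyadenylation elements in messenger RNA, was named for the Btg1 siRNA alone, at -0.43 on the Btg2 knockdown and 0.44 on scramble.

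**Figure D2:**
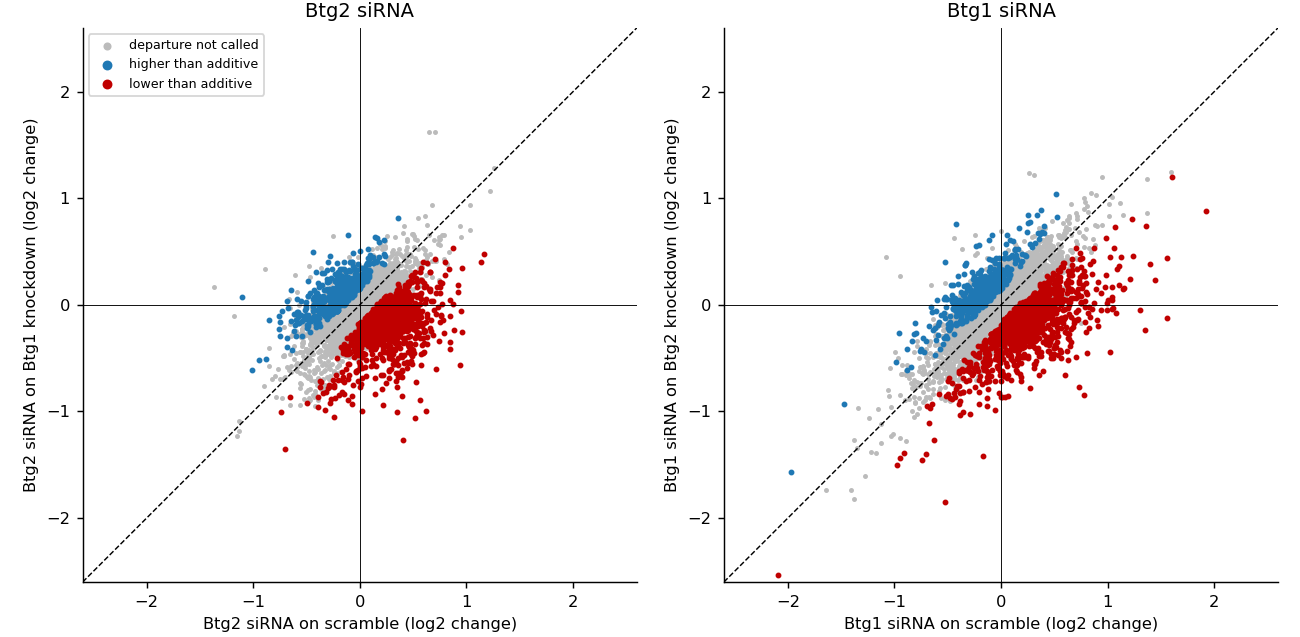
Log2 effect of the Btg2 siRNA (left) and of the Btg1 siRNA (right) on the knockdown of the other gene (vertical axis) and on scramble (horizontal axis), for genes of at least 5 CPM, with the diagonal of equal effects dashed. Genes below the additive level (red) lie under the diagonal and genes above it (blue) over it by construction, since the departure is the vertical minus the horizontal value. Over all genes tested, with no limit of 5 CPM, 250 and 229 genes were called raised on scramble and lowered on the knockdown (lower right).

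Gene groups were read against the background of 10.1% of all tested genes below and 4.99% above the additive level, with a median departure of 0.01. Immediate early genes, the transcription factors and phosphatases that respond first to growth factors and stress, were called below it in 14 of 21 and above it in none (median -0.47). All 21 had a departure under 0. Nr4a1, an orphan nuclear receptor, was at 26.8, 23.2 and 24.1 CPM in siBtg12, at 39.8, 33.1 and 34.6 in siBtg1, at 37.1, 35.2 and 32.2 in siBtg2 and at 26.5, 25.1 and 25.2 in siScr. Every single-knockdown library was above every siBtg12 and siScr library, and the departure was -0.98 ± 0.10 (edgeR adjusted p = 5.8e-07). Egr1, a zinc finger factor, was at 39.5, 40.2 and 44.6 CPM in siBtg12, at 60.4, 62.6 and 68.7 in siBtg1, at 51.8, 55.6 and 56.7 in siBtg2 and at 46.3, 45.7 and 43.4 in siScr, a departure of -0.90 ± 0.08 (edgeR adjusted p = 1.2e-07). The stress-induced Atf3 departed by -0.83 and Dusp1, which inactivates MAP kinases, by -0.55. The list had 0 higher and 12 lower calls for the Btg2 siRNA on the Btg1 knockdown, against 10 higher and 0 lower on scramble. Over all genes tested these shares were 10.3% higher and 11.9% lower on the Btg1 knockdown, and 16.4% higher and 13.6% lower on scramble. For the Btg1 siRNA the list had 0 higher and 12 lower calls on the Btg2 knockdown, against 10 higher and 3 lower on scramble. Over all genes tested these shares were 15.2% higher and 17% lower on the Btg2 knockdown, and 18.7% higher and 17.8% lower on scramble.

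Feedback on ERK signalling showed the same direction. Of 11 feedback genes, 7 were below the additive level and none above (median -0.24). Dusp4, a nuclear MAP kinase phosphatase, was at 18.1, 17.7 and 16.3 CPM in siBtg12, at 19.7, 20.7 and 21.5 in siBtg1, at 33.6, 29.2 and 31.7 in siBtg2 and at 19.3, 21.4 and 21.3 in siScr. Only the siBtg2 libraries stood high, and the departure was -0.86 ± 0.10 (edgeR adjusted p = 2.1e-06). Dusp6, the cytoplasmic ERK phosphatase, departed by -0.51, and the inhibitors Spred1 and Spry4 by -0.61 and -0.37.

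Stretch and hypertrophic markers were below the additive level in 8 of 9, and none was above (median -0.58). Besides Xirp2 and Fhl1, Rcan1, a calcineurin target and regulator, was at 576, 544 and 602 CPM in siBtg12, at 644, 673 and 768 in siBtg1, at 726, 740 and 721 in siBtg2 and at 536, 582 and 585 in siScr. The departure was -0.64 ± 0.08 (edgeR adjusted p = 6.7e-06), with siBtg12 and siScr overlapping below the singles. Ankrd1, a stretch-responsive ankyrin repeat protein, averaged 3070 ± 186 CPM in siBtg12, 3369 ± 329 in siBtg1, 3794 ± 228 in siBtg2 and 2800 ± 97.8 in siScr (SD, n = 3 each) and departed by -0.57. Myh7, the slow myosin heavy chain, averaged 4817 ± 224 CPM in siBtg12, 4898 ± 221 in siBtg1, 7689 ± 325 in siBtg2 and 5356 ± 120 in siScr (SD, n = 3 each) and departed by -0.55. The Btg2 siRNA changed it by -0.02 on the Btg1 knockdown and by 0.52 on scramble. The list had 0 higher and 3 lower calls for the Btg2 siRNA on the Btg1 knockdown, against 6 higher and 0 lower on scramble. All genes tested gave 10.3% higher and 11.9% lower on the Btg1 knockdown, and 16.4% higher and 13.6% lower on scramble.

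Sarcomere genes were below the additive level in 13 of 24 and above it in 1 (median -0.23). Csrp3, the muscle LIM protein of the Z-disc, averaged 649 ± 13.1 CPM in siBtg12, 865 ± 106 in siBtg1, 704 ± 25.0 in siBtg2 and 570 ± 20.9 in siScr (SD, n = 3 each), a departure of -0.72. Actc1, cardiac actin, departed by -0.57 and Myom1, the M-band protein myomesin, by -0.39. In Actc1 the siBtg12 libraries lay within 4152 to 4188 CPM and those of siBtg1 were spread over 4699 to 6108 CPM. Myh7 and Acta1 count in this list and among the hypertrophic markers, so the groups are not independent. The 1 gene above was Myh6, named here after its value was seen, at 0.20 ± 0.06 (edgeR adjusted p = 0.036), which kept its call in 3 of the 12 fits that left out a library, those without siBtg1 replicate 3, siBtg2 replicate 2 or siBtg12 replicate 2.

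YAP targets, genes driven by the Hippo pathway's coactivator with TEAD factors, were below the additive level in 8 of 12 and above it in none (median -0.44). Ankrd1 is in this list and in the hypertrophic one, and Tgfb2 in this list and in the TGF-beta one. Tead1, the DNA-binding partner itself, was at 38.4, 37.9 and 33.5 CPM in siBtg12, at 54.6, 51.8 and 51.8 in siBtg1, at 57.9, 57.0 and 53.7 in siBtg2 and at 39.5, 39.4 and 41.6 in siScr. The siBtg12 libraries lay just below those of scramble (-0.14, edgeR adjusted p = 0.061) and all single-knockdown libraries above both, a departure of -1.01 ± 0.08 (edgeR adjusted p = 1.2e-08). Ccn1, a secreted matricellular protein, was at 201, 189 and 203 CPM in siBtg12, at 243, 256 and 282 in siBtg1, at 190, 204 and 186 in siBtg2 and at 148, 156 and 150 in siScr, a departure of -0.75 ± 0.07 (edgeR adjusted p = 1.6e-07). The double knockdown overlapped siBtg2 and lay below siBtg1 in every library.

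**Figure D3:**
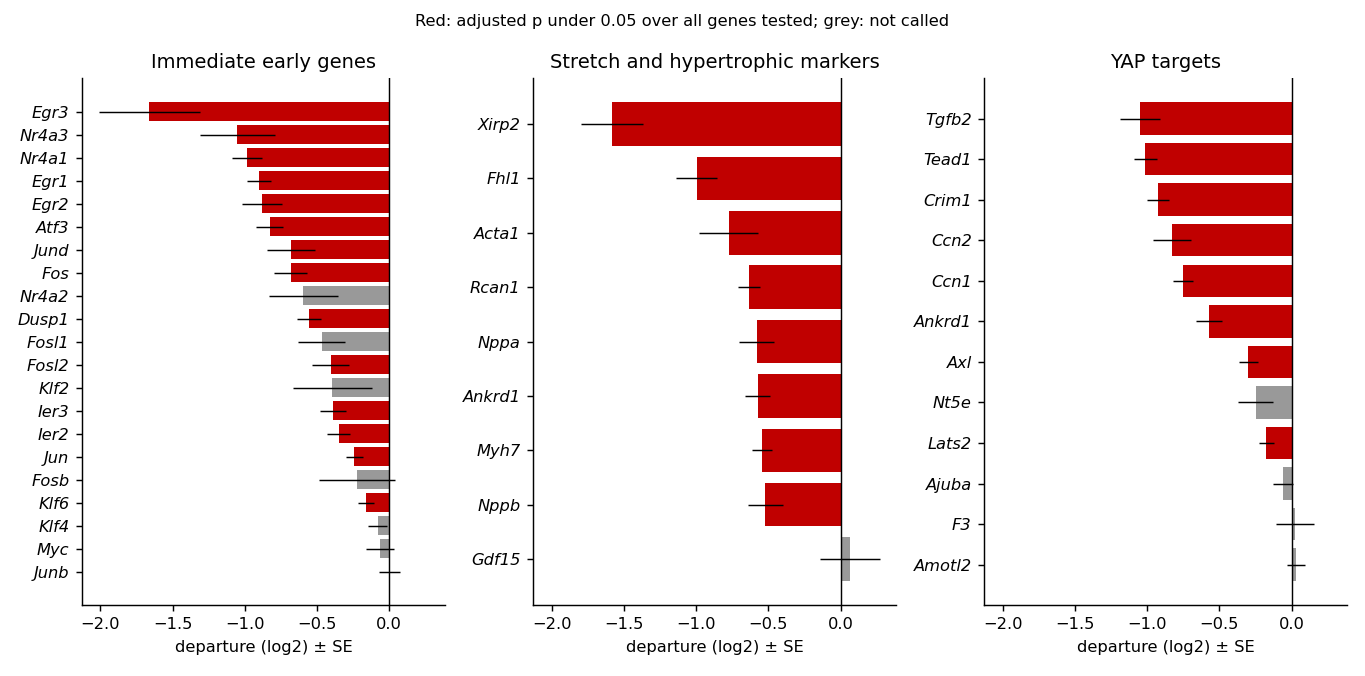
Departure from additivity on the log2 scale with its SE for every tested member of 3 lists (21 immediate early genes, 9 stretch and hypertrophic markers, 12 YAP targets). Red bars passed edgeR's adjusted p under 0.05 over all genes tested (14, 8 and 8 genes), all of them to the left of 0. Ankrd1 appears in the last 2 lists.

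The promoters of 3 genes, from the immediate early, YAP and mitotic lists, are shown because a known motif was more frequent in those lists than among all promoters. They span 250 bases before to 50 bases after the annotated start of each gene, on its coding strand, from RefSeq on the rat assembly GRCr8, which is not the build the counts were made on. Nr4a1 lies on the plus strand of chromosome 7, Ccn1 on the minus strand of chromosome 2 and Prc1 on the plus strand of chromosome 1. Capitals mark TGACG (the core of the cyclic AMP response element, here on the opposite strand as CGTCA) in Nr4a1, CATTCC (the TEAD site) in Ccn1, and TTTGAA (the cell cycle homology region, CHR) and CCAAT boxes in Prc1, on either strand.
Nr4a1: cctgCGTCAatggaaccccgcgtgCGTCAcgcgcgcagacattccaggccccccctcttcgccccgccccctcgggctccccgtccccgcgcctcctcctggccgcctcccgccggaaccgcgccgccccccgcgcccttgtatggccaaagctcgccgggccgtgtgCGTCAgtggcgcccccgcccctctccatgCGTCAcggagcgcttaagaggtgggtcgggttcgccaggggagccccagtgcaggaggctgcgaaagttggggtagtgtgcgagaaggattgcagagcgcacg
Ccn1: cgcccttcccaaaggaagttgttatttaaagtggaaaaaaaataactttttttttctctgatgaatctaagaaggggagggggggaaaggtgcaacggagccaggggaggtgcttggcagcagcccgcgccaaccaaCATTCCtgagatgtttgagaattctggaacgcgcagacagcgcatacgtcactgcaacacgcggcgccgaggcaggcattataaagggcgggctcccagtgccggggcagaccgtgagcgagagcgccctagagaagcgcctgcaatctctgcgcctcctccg
Prc1: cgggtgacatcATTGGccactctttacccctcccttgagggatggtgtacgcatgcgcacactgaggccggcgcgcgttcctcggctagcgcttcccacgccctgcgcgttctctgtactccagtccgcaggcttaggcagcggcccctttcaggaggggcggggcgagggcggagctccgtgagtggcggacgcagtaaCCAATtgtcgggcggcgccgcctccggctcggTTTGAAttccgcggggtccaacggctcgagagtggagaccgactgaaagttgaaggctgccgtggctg

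Nr4a1 held 4 TGACG cores, at 246, 226, 82 and 53 bases before the start. The core was present in 9 of 13 immediate early promoters that could be matched (69.2%) and in 22% of 27457 promoters, but also in 16 of 28 promoters of the G1/S list (57.1%). The whole response element TGACGTCA, which contains the core, was in 3 of the 13, against 1.91% of all promoters. Ccn1 held CATTCC at 113 bases before the start, and 4 of 8 YAP target promoters held it, against 13.9% of all. CATTCC was also in 5 of 19 sarcomere promoters (26.3%) and 2 of 8 hypertrophic promoters (25%). Prc1 held TTTGAA at 18 bases and CCAAT boxes at 239 and 50 bases before the start. Both strands were searched, and the searches for TGACG, TGACGTCA and CATTCC were added after the departures were seen. Not every motif was marked in every gene: the Nr4a1 stretch also holds CATTCC, and the Ccn1 stretch CGTCA, in small letters. CATTCC was in 1 of the 13 immediate early promoters, and TGACG in 1 of the 8 YAP target promoters. A match describes letters and not binding.

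Of 38 G2/M genes, 8 were below the additive level and none above (median -0.30), and 35 had a departure under 0. The number called depended on single libraries. Prc1, which bundles microtubules of the central spindle, was at 31.4, 38.9 and 36.9 CPM in siBtg12, at 62.4, 57.0 and 69.5 in siBtg1, at 30.7, 35.3 and 35.3 in siBtg2 and at 33.8, 37.1 and 42.9 in siScr. Only siBtg1 stood high, and the departure was -0.64 ± 0.14 (edgeR adjusted p = 0.0070). Ect2, a cytokinesis exchange factor, had the same form at -0.64. For the Btg2 siRNA the list had 0 higher and 34 lower calls on the Btg1 knockdown, against 0 higher and 23 lower on scramble. For the Btg1 siRNA it had 4 higher and 1 lower on the Btg2 knockdown, against 25 higher and 0 lower on scramble. Among all genes tested the Btg2 siRNA lowered 11.9% on the Btg1 knockdown and 13.6% on scramble, and raised 10.3% and 16.4%. The Btg1 siRNA raised 15.2% on the Btg2 knockdown and 18.7% on scramble, and lowered 17% and 17.8%. TTTGAA was in 24 of 33 matched G2/M promoters (72.7%) and in 18.1% of all, and CCAAT in 26 of 33 (78.8%) and in 37.7% of all. CCAAT was also in 20 of 28 promoters of the G1/S list (71.4%). The count of 8 was 3 without siScr replicate 1 or siBtg2 replicate 3, and 4 without siBtg1 replicate 1, siBtg1 replicate 3 or siBtg12 replicate 1. It was 5 without siScr replicate 2, siBtg2 replicate 2 or siBtg12 replicate 3, 13 without siScr replicate 3 and 14 without siBtg1 replicate 2.

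Of 38 genes of the G1/S transition and DNA replication, 9 were below and none above (median -0.17). Ccnd2, a D-type cyclin, was at 87.5, 79.0 and 76.4 CPM in siBtg12, at 119, 118 and 122 in siBtg1, at 117, 115 and 109 in siBtg2 and at 105, 105 and 102 in siScr. The double knockdown was the lowest group and both singles were above scramble, a departure of -0.69 ± 0.07 (edgeR adjusted p = 1.7e-07). The count of 9 was 3 without siBtg1 replicate 3 or siBtg2 replicate 2, 4 without siScr replicate 1 or siBtg12 replicate 3 and 5 without siBtg1 replicate 1. Among 12 cell cycle inhibitors, 3 were below and 1 above. Wee1, the kinase that holds back CDK1, departed by -0.58, Rbl1, a pocket protein, by -0.57 and Cdkn2b by -0.22. The inhibitor above was Cdkn1a at 0.20, called without siScr replicate 3, siBtg1 replicate 2, siBtg2 replicate 1 or siBtg12 replicate 2 but in no other fit that left out a library. Of 14 DNA repair genes, Brca1, Fancd2 and Atm were below, at -0.76, -0.50 and -0.40. With limma on log2(TPM + 1) 1 of these 3 calls remained and on log2(TPM + 0.1) 0. Fancd2 lost its edgeR call without siScr replicate 1, siBtg1 replicate 3, siBtg2 replicate 2 or siBtg2 replicate 3.

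Of 25 TGF-beta and activin genes, 8 were below and none above (median -0.20). Tgfb2, a ligand, was at 228, 190 and 176 CPM in siBtg12, at 289, 321 and 362 in siBtg1, at 239, 240 and 227 in siBtg2 and at 180, 187 and 191 in siScr. The additive level of 410 CPM exceeded every library, and the departure was -1.05 ± 0.14 (edgeR adjusted p = 5.0e-04). Smad7, the inhibitory SMAD, departed by -0.41. The count of 8 was 2 without siBtg1 replicate 3 or siBtg2 replicate 1, 3 without siScr replicate 1 or siBtg12 replicate 2 and 4 without siScr replicate 3. Of 16 cardiac transcription factors, Tbx20, Mef2a and Gata4 were below, at -0.88, -0.39 and -0.26, and none above. Tbx20 averaged 81.0 ± 8.64 CPM in siBtg12, 104 ± 5.05 in siBtg1, 105 ± 1.79 in siBtg2 and 73.3 ± 3.07 in siScr (SD, n = 3 each).

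Of 26 calcium-handling and ion channel genes, 7 were below and 2 above (median -0.12). With each library's locus-length trend removed the balance turned to 2 below and 4 above, and none of the 7 genes of this list in the 3 shorter groups by locus length was below. The T-type calcium channel Cacna1g departed by -0.36 and the sodium-calcium exchanger Slc8a1 by -0.30. Kcnip2, an auxiliary potassium channel subunit, was above its additive level of 1.17 CPM. It was at 2.95, 4.0 and 3.35 CPM in siBtg12, 2.83, 2.55 and 1.86 in siBtg1, 2.69, 2.02 and 3.01 in siBtg2 and 5.51, 5.86 and 4.60 in siScr. Its departure was 1.51 ± 0.25 (edgeR adjusted p = 1.6e-04), at a low level. The other gene above was Hrc, a calcium-binding protein of the sarcoplasmic reticulum, at 0.32. Of 24 fatty acid oxidation genes, the coactivators Ppargc1b and Ppargc1a were below, at -0.90 and -0.43, and the enzymes Cpt2, Hadh, Etfdh and Acads were above, at 0.31, 0.28, 0.21 and 0.20. Hadh lost its call without siScr replicate 2, siBtg1 replicate 3, siBtg2 replicate 1 or siBtg12 replicate 3, and Etfdh without siScr replicate 3, siBtg2 replicate 1 or siBtg12 replicate 2.

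Interferon response genes had 4 of 33 below and 1 above (median 0.03). The share called, 15.15%, was near the 15.1% over all genes tested. With scaling by library size alone 3 were below and 4 above. Yet 28 of the 33 were called higher for the Btg1 siRNA on the Btg2 knockdown and 29 on scramble. Over all genes tested 15.2% and 18.7% were called higher in these comparisons. Trim25, a ubiquitin ligase of RNA sensing, departed by -0.41, the RNA sensor Ifih1 by -0.28, the antiviral enzyme Rsad2 by -0.33 and the factor Irf7 by 0.23, while Ifit1 departed by -1.54 at 1.33 CPM in siBtg12, 2.29 in siBtg1, 2.06 in siBtg2 and 1.19 in siScr. The interferon count of 5 was 8 without siBtg1 replicate 2, split into 4 below and 4 above, and 9 without siBtg1 replicate 3, with 8 below and 1 above. Of 20 p53 targets, 5 were below, among them the kinase Plk2 at -0.54 and Tp53inp1 at -0.64, and Fas and Cdkn1a were above at 0.42 and 0.20. Cdkn1a is also among the inhibitors above. With library size alone 3 p53 targets were below and 3 above. Their count of 7 was 3 without siScr replicate 1 and 4 without siScr replicate 2 or siBtg2 replicate 2. Of 24 genes of the unfolded protein and integrated stress responses, the sensor Atf6 was below at -0.34, and Atf5, Herpud1 and Ddit3 were above at 0.34, 0.23 and 0.23. Ddit3 kept its call without siScr replicate 3, siBtg1 replicate 2, siBtg2 replicate 2, siBtg12 replicate 1 or siBtg12 replicate 3 and lost it in the other fits of this kind.

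Of 22 cholesterol synthesis genes, 4 were below, among them Stard4 at -0.37 and Hmgcs1 at -0.22, and Mvk was above at 0.26. Stard4 was called whichever library was left out, Mvk in 4 of those 12 fits and Hmgcs1 in 3. Their count of 5 was 2 without siScr replicate 2 or siBtg2 replicate 2, and 3 without siScr replicate 1, siBtg1 replicate 2, siBtg1 replicate 3, siBtg2 replicate 3 or siBtg12 replicate 3. Of 18 NRF2 and antioxidant genes, Hmox1, Srxn1 and Txnrd1 were above at 0.27, 0.25 and 0.18, and Gclc was below at -0.23. This count of 4 was 1 without siBtg1 replicate 1 and 2 without siScr replicate 1, siScr replicate 2 or siBtg1 replicate 3, while Hmox1 kept its call in all 12 fits. Of 21 glycolysis genes Pfkp alone was called, at -0.18, while library size alone gave 6 above and 0 below. That count of 1 was 0 without siScr replicate 3, siBtg1 replicate 3 or siBtg2 replicate 1. It was 2, both above, without siBtg1 replicate 2, and 3, of which 2 above, without siBtg12 replicate 1 or siBtg12 replicate 2. Of 12 CCR4-NOT and PAN genes, the deadenylase paralogs Cnot6 and Cnot6l were below at -0.29 and -0.34, while library size alone gave 1 below and 2 above. The share called by edgeR, 16.67%, was near the 15.1% over all genes tested. That count of 2 was 0 without siBtg1 replicate 1 or siBtg2 replicate 3, and Cnot6l kept its call only without siScr replicate 3, siBtg2 replicate 1 or siBtg12 replicate 1.

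No call was made among 27 oxidative phosphorylation genes and 47 ribosomal protein genes by edgeR. At an unadjusted p under 0.05 there were 5 of the 27 and 1 of the 47, and DESeq2 called 1 and 0. Without siBtg12 replicate 1 edgeR called 3 oxidative phosphorylation genes, all above, and without siBtg2 replicate 3 or siBtg12 replicate 3 it called 1 ribosomal protein gene, below.

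**Figure D4:**
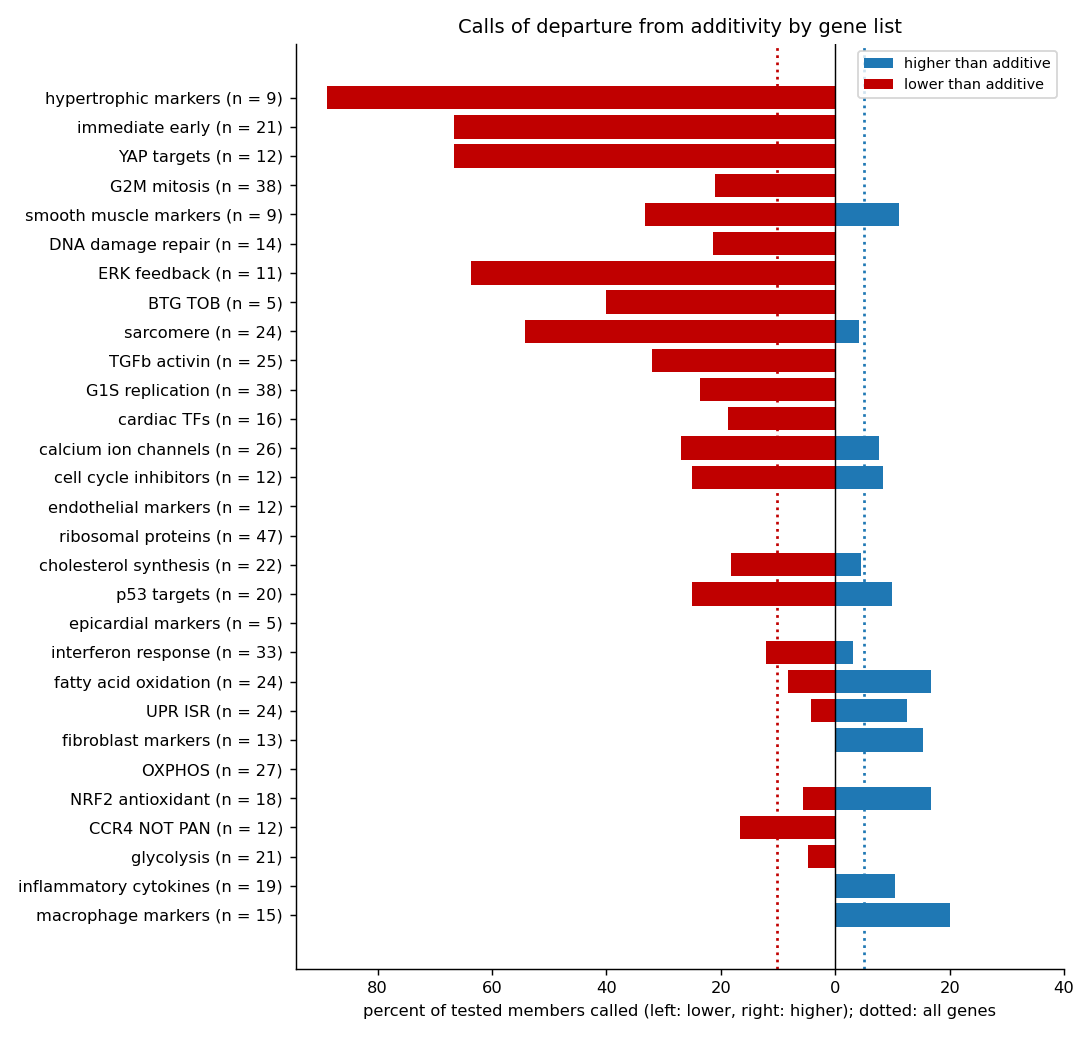
Share of the tested members of each list (n beside its name, lists of at least 5 tested genes) called below (red, to the left) or above (blue, to the right) the additive level by edgeR, ordered by median departure with the lowest at the top. Dotted lines give the shares over all genes tested, 10.1% below and 4.99% above: the hypertrophic, immediate early, YAP, ERK feedback and sarcomere lists reach furthest to the left.

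Markers of other cell types were read against the same background. Macrophage markers had 3 of 15 above the additive level and none below (median 0.49): the lysozyme gene Lyz2 at 0.94, the receptor Csf1r at 0.82 and the endosomal glycoprotein gene Cd68 at 0.49. Only 4 of the 15 reached 5 CPM, so the median rests mostly on weakly expressed genes, and it ran from 0.27 to 0.63 over the settings. Csf1r was not called without siScr replicate 1 (0.64), nor Cd68 without siScr replicate 2 (0.41). Their summed level was 52.0 to 53.7 CPM in siBtg12, 47.7 to 56.5 in siBtg1, 45.7 to 47.2 in siBtg2 and 59.7 to 69.9 in siScr. Lyz2 was at 10.9, 11.8 and 11 CPM in siBtg12, at 7.40, 7.38 and 9.31 in siBtg1, at 9.18, 7.76 and 8.41 in siBtg2 and at 13.0, 12.9 and 8.68 in siScr. Mmp12, the macrophage metalloelastase, was among the 15 largest positive departures at 0.71, and Vcam1 and Csf1, the genes called among 19 inflammatory genes, were above at 0.44 and 0.26. The part of macrophage content in these departures was not tested. The macrophage count of 3 was 6, all above, without siBtg12 replicate 1. The inflammatory count of 2 was 4, all above, without siBtg1 replicate 2, and 4, of which 2 above and 2 below, without siBtg12 replicate 1.

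Smooth muscle markers had 3 of 9 below and 1 above. Besides Cnn1, these were Tagln at -0.51, Cspg4 at -0.29 and Smtn at 0.32. Cspg4 was called in 5 of the 12 fits that left out a library, those without siScr replicate 1, siBtg1 replicate 1, siBtg1 replicate 2, siBtg2 replicate 3 or siBtg12 replicate 3. Here the summed level was 2010 to 2190 CPM in siBtg12, 2160 to 2770 in siBtg1, 2180 to 2530 in siBtg2 and 1950 to 2090 in siScr. Fibroblast markers had 2 of 13 above, Pdgfra at 0.27 and Postn at 0.26, and none below. Without siBtg1 replicate 2 there were 2 above and 2 below. Their sum was 17500 to 19300 CPM in siBtg12, 17400 to 20500 in siBtg1, 21900 to 23300 in siBtg2 and 21400 to 22200 in siScr. edgeR called none of 12 endothelial, 5 epicardial, 3 Schwann cell and neuron and 3 erythroid markers, and DESeq2 called none either. At an unadjusted p under 0.05 there were 1, 1, 0 and 0.

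Calls below the additive level were more frequent among genes with long loci. Genes of at least 5 CPM, of which 99.2% had a locus length in RefSeq, were sorted by it into 5 groups of 1941. The share below the additive level was 5.62%, 5.05%, 8.19%, 14.6% and 26.9% from the shortest to the longest, and the share above it was 8.04%, 7.37%, 6.18%, 4.79% and 3.40%. The shortest group spanned 0.067 to 7.97 kb and the longest 67.8 to 2730 kb. The median departure was 0.05 in the shortest and -0.09 in the longest. In single libraries the longest minus the shortest group was 0.03, 0.01 and -0.10 on the log2 scale in siBtg12, 0.03, -0.03 and -0.01 in siBtg1, 0.04, 0.09 and 0.11 in siBtg2 and -0.06, -0.10 and -0.03 in siScr. The siBtg2 libraries were thus highest and the siScr libraries among the lowest, and siBtg12 replicate 3 stood apart from replicates 1 and 2. A similar trend was seen by relative transcript length, taken as counts over TPM, which 97.4% of genes of at least 5 CPM had. By that length the share below was 5.24%, 9.02%, 10.1%, 13.6% and 22.6% from the shortest to the longest group. The share above was 7.34% in the shortest and 4.83% in the longest. The 2 lengths were not separated.

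**Figure D5:**
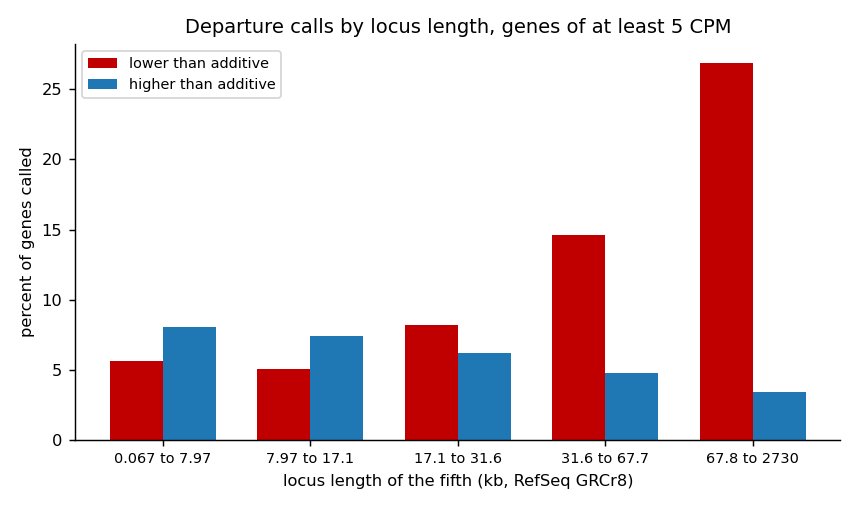
Percent of genes called below (red) and above (blue) the additive level by edgeR, in 5 groups of 1941 genes each by locus length, for genes of at least 5 CPM. The red bars climb from 5.62% in the shortest to 26.9% in the longest loci, and the blue bars decline from 8.04% to 3.40%.

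The 15 genes with the largest negative departures had a median locus of 58.9 kb, with 6 in the longest group, against 22.9 kb over all tested genes and 15.3 kb for the 15 with the largest positive departures. The immediate early genes had a median locus of 5.05 kb and none in the longest group: of 16 in the 3 shorter groups, 11 were below the additive level. Of 24 sarcomere genes 18 were in the 3 shorter groups, and 8 of these were below. With each library's locus-length trend removed, an alternative added after the data were seen, 1742 genes were called, 1069 below and 673 above, and 1422 of them were also called without it. The immediate early list then had 15 genes below, the hypertrophic list 8, the sarcomere list 12, and the ERK feedback and YAP lists 7 each. The calcium and ion channel list had 2 below and 4 above, the stress response list 2 calls and the CCR4-NOT and PAN list 1. What length stands for in these libraries was not tested.

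Departures were also computed on the linear scale. When additivity was defined on CPM rather than on log2 values, so that single effects add as amounts, 1970 genes departed, 1252 below and 718 above, by limma with adjusted p under 0.05. Of these, 1606 were also called on the log2 scale.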

How the data were processed

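RNA was measured in 12 libraries, 3 in each of the groups siBtg12, siBtg1, siBtg2 and siScr, grouped by the sample titles and treatment labels. Per the labels' protocols, the Ovation RNA-Seq system served to amplify total RNA, which was then made into Nextera XT libraries and read in pairs. FastQC, cutadapt, Trim Galore, featureCounts, STAR and the build rn5 are named, per the submitters' processing notes. Annotation and strand setting were not given in the sources used here, so overlapping and antisense genes, and near-identical copies, cannot be told apart. The authors deposited raw counts for 17419 gene symbols and a table of TPM values. The TPM values served for marker levels, relative transcript lengths and alternatives only. Amplified reads carry no molecular identifiers, so counts are not independent molecules.

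The test was edgeR 4.0.16 (limma 3.58.1, R 4.3.3) with TMM factors of 0.9711 to 1.018, robust dispersions and 1 mean per group in a single fit (8 residual degrees of freedom). After filterByExpr 12535 genes stayed, and 4884 were dropped. The common biological coefficient of variation was 4.97%. Between replicates, chi-square divided by its degrees of freedom was 4.18 to 27.0, so replicates differed by more than sampling noise. P-values were adjusted over all genes tested and called under 0.05. The additive level is the CPM that the single effects give in the double knockdown.

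Genes were named by rule: Btg1 and Btg2, the 15 largest departures each way among genes of at least 5 CPM called in all 12 fits that left out 1 library, up to 8 genes per siRNA with opposite effects on its backgrounds, and up to 4 called members of each of 31 lists. Some genes so named count in the totals but are not reported here. Members and lists were chosen with earlier results of these data known. Alternatives were DESeq2 1.42.0, other scalings and filters, a block for replicate number, a linear scale, log2(TPM + 1) or log2(TPM + 0.1) tested with limma, and each library left out. Tested on simulated data with 12469 genes, the departure test found 62 of 67 genes departing 2-fold, 54 of 67 at 1.5-fold and 31 of 66 at 1.25-fold, and 10 of its 157 calls were false. The simulated departures were drawn from genes of at least 1 CPM, with equal odds of lying above or below the additive level. With 157 calls there against 1890 in the data, these rates may not hold for the real departures. RefSeq tables of the assembly GRCr8 matched 17074 symbols and missed 345. Since rn5 is another assembly, coordinates are left out.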

Additional observations from a re-analysis of the deposited data

Results flagged for a closer look

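Among the 117 genes named by rule, 57 had effects of the same siRNA called in opposite directions on its 2 backgrounds, and in each the difference itself was tested as the departure from additivity (edgeR, adjusted p under 0.05). This was so for 47 genes with the Btg2 siRNA and 34 with the Btg1 siRNA, 24 of them with both. Some were named because of this pattern, and most others for a large departure or a small departure p. The number therefore says nothing of how common the pattern is. Values here are departures on the log2 scale.

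With both siRNAs, genes of signalling and transcription were Prkaa2 at -1.14, S1pr1 at -1.25, Mib1 at -1.26, Hipk2 at -1.05, Cnksr3 at -0.88, Tead1 at -1.01, Tbx20 at -0.88, Ppargc1b at -0.90, Egr1 at -0.90, Nr4a1 at -0.98, Rcan1 at -0.64 and Dusp6 at -0.51. Growth control and p53 genes were Ccnd2 at -0.69, Wee1 at -0.58, Plk2 at -0.54 and Tp53inp1 at -0.64. The remainder were Cacna2d1 at -0.96, Ankrd23 at -1.62, Ino80d at -1.50, Lpp at -1.46, Lrrc58 at -1.20, Ifit1 at -1.54, Stard4 at -0.37 and, above the additive level, Lyz2 at 0.94.

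With the Btg2 siRNA but not the Btg1 siRNA, muscle and channel genes were Actc1 at -0.57, Csrp3 at -0.72, Myom1 at -0.39, Xirp2 at -1.58, Cnn1 at -1.21 and Cacna1g at -0.36. The cardiac transcription factor Gata4 was at -0.26. Signalling and matrix genes were Ccn1 at -0.75, Crim1 at -0.93, Tgfb2 at -1.05, Dusp4 at -0.86, Spred1 at -0.61, Itga6 at -0.96, Prrg4 at -1.32, Zbtb20 at -1.25, Creb5 at -1.68 and Atf3 at -0.83. Among those above the additive level were Kcnip2 at 1.51, Pla2g7 at 0.70, Ccdc28b at 0.60 and Cpt2 at 0.31.

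With the Btg1 siRNA but not the Btg2 siRNA, they were Btg2 at -0.65, Cpeb4 at -0.87, Ankrd1 at -0.57, Ppargc1a at -0.43 and Mef2a at -0.39. Above the additive level were Dhrs7c at 1.18, Mmp12 at 0.71, Chi3l1 at 0.67, Vcam1 at 0.44 and Pdgfra at 0.27.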

How the results depend on the processing

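The count of departures stayed within 1.5 times 1890 in every setting run. DESeq2 called 2070, size factors of relative log expression 1897, library size alone 2020, a filter of 1 CPM in 6 libraries 1947, no filter on low counts 1851, limma on log2(TPM + 1) 1476 and on log2(TPM + 0.1) 1458, the linear scale 1970 and the locus-length correction 1742. With 1 library left out, 1325 to 1850 genes were called, the fewest without siScr replicate 1. For the 117 named genes and all settings, 2420 values kept their direction and call, 154 kept their direction and lost the call, and 0 reversed. Counts within lists moved by over 1.5 times in 92 cases and by less in 559, those from left-out libraries being given beside the lists above. By that much, limma on TPM moved the counts of the CCR4-NOT, G2/M, G1/S, p53, DNA repair, interferon, glycolysis, TGF-beta and, on log2(TPM + 1), cholesterol lists. Library size alone moved those of the G2/M, stress response, oxidative phosphorylation, fatty acid, glycolysis and TGF-beta lists, and DESeq2 those of oxidative phosphorylation, glycolysis and fibroblast markers. The locus-length correction moved the CCR4-NOT, stress response and glycolysis counts, the block the CCR4-NOT and glycolysis counts, and each other filter the glycolysis count. The cause was not tested. Small departures of weakly expressed genes could go uncalled, since the median SE was 0.60 below 1 CPM.

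The labels give the groups shared replicate numbers. Deviations from the group means correlated at -0.092 to 0.0599 over 18 same-numbered pairs and at -0.107 to 0.133 over 36 other pairs. These ranges overlap. With 3 libraries per group they cannot tell whether same-numbered libraries shared a culture or preparation. With the replicate number as a block, 1768 genes departed, 548 above and 1220 below the additive level.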
